A study of Mus musculus with 2 samples.

Results

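The interferon-induced genes of this array are 60 genes, of 24171 genes with a symbol, whose array name belongs to the Ifi, Ifit and Ifitm series, the Irf factors other than Irf8, the Oas, Gbp, Mx, Isg and Stat names of the interferon response, or is Rsad2, Bst2, Igtp, Irgm1 or Iigp1. The rule uses names alone and no measured value. No sequence used here carried the name Usp18. Of the array names, 3 were replaced by current ones (Gbp1 by Gbp2b, Gbp6 by Gbp7, Ifi27l1 by Ifi27).

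The cells were LT-HSC, long-term stem cells of the blood that lie in the marrow and can renew all its lineages, purified by flow cytometry from femur marrow of C57/BL6 mice. The knockout sample came from mice lacking WASH, a protein that starts actin filaments on endosomes, and the control sample from wild type mice. Each genotype had 1 NimbleGen array, so no difference below was tested against variation between animals and no error can be given. The labels used here give no allele, no promoter or Cre line behind the deletion, no inducing agent, no age and no number of mice, so what the groups share or differ in beyond strain and genotype is not known here.

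Interferons are secreted antiviral proteins that act through separate receptors. Type I interferons (alpha and beta) activate a complex with Stat2 and Irf9 that binds the interferon-stimulated response element (ISRE), whereas interferon gamma acts through the gamma-activated site (GAS) and induces Irf1. The induced genes code for proteins that cut or bind viral RNA, block membrane fusion or attack the vacuoles of microbes. In stem cells of the marrow, interferons are known to end quiescence when given acutely.

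Promoter letters are shown here for some of the members that hold ISRE letters. The stretches come from RefSeq promoter windows on build GRCm38.p6, from 250 bases before to 50 bases after an annotated start site, and run 5′ to 3′ on the strand of the gene. Capitals mark ISRE letters, searched on both strands as GAAA, any 2 bases and GAAA, so that TTTC, any 2 bases and TTTC is a match on the opposite strand.
Rsad2: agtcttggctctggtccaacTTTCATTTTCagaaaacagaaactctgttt
Isg15: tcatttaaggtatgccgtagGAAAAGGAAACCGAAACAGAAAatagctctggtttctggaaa
Ifit1: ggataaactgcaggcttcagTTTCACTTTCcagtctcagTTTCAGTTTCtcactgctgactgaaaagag
Ifitm2: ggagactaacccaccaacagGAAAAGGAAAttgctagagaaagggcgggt
Ifitm3: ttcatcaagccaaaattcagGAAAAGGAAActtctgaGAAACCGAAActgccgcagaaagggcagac
Igtp: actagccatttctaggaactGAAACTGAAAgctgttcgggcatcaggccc
The stretches lie at chr12:26456543-26456592 on the minus strand for Rsad2, chr4:156200855-156200916 on the minus strand for Isg15, chr19:34640765-34640833 on the plus strand for Ifit1, chr7:140955978-140956027 on the minus strand for Ifitm2, chr7:141010696-141010762 on the minus strand for Ifitm3 and chr11:58199502-58199551 on the plus strand for Igtp.

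The interferon-induced genes did not lie to one side as a group. Of the 60 members, 32 were higher in the knockout and 28 were lower. Their median log2 difference, knockout minus control, was 0.06, beside 0.02 over all 24171 genes. A gene was taken to be in the detected range when it lay above the median intensity of at least 1 array, which held for 36 members and 16245 genes. In that range 18 members were higher and 18 lower, and their median was 0.00 beside 0.03 for all genes. The quartiles of the members were -0.44 and 0.38, and those of all genes -0.42 and 0.45.

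Single members nevertheless differed at least 2-fold. In the detected range, 5 members were at least 2-fold higher (13.9%), against a background of 6.41% of all genes, and 5 were at least 2-fold lower (13.9%), against 7.29%. Together 10 of 36 (27.8%) passed this size beside 13.7% of all genes. Over all 60 members, dim ones included, 5 were at least 2-fold higher beside 5.94% of all genes and 7 at least 2-fold lower beside 6.42%, or 12 of 60 in either direction beside 12.4%. In the detected range the higher ones were Isg20, Irf3, Ifi30, Ifitm7 and Rsad2, and the lower ones were Ifitm6, Ifit1, Ifitm3, Ifi27 and Oas2. With an offset of 50 added before the log, only Ifitm3 among the lower ones kept this size. Of the 36 members, 2 reached the detected range on the knockout array only (Ifitm7 and Isg15). On the control array only, 3 reached it (Ifitm6, Ifit1 and Oas2), all of them among the 5 lower ones. Genes that passed on 1 array only had to differ to some degree. Among the 31 members above the median of both arrays, 4 were at least 2-fold higher beside 3.76% of genes and 2 were at least 2-fold lower beside 4.75%, or 19.4% in either direction beside 8.51%. The plot of both intensities shows the higher and lower members side by side in every group.

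**Figure D1:**
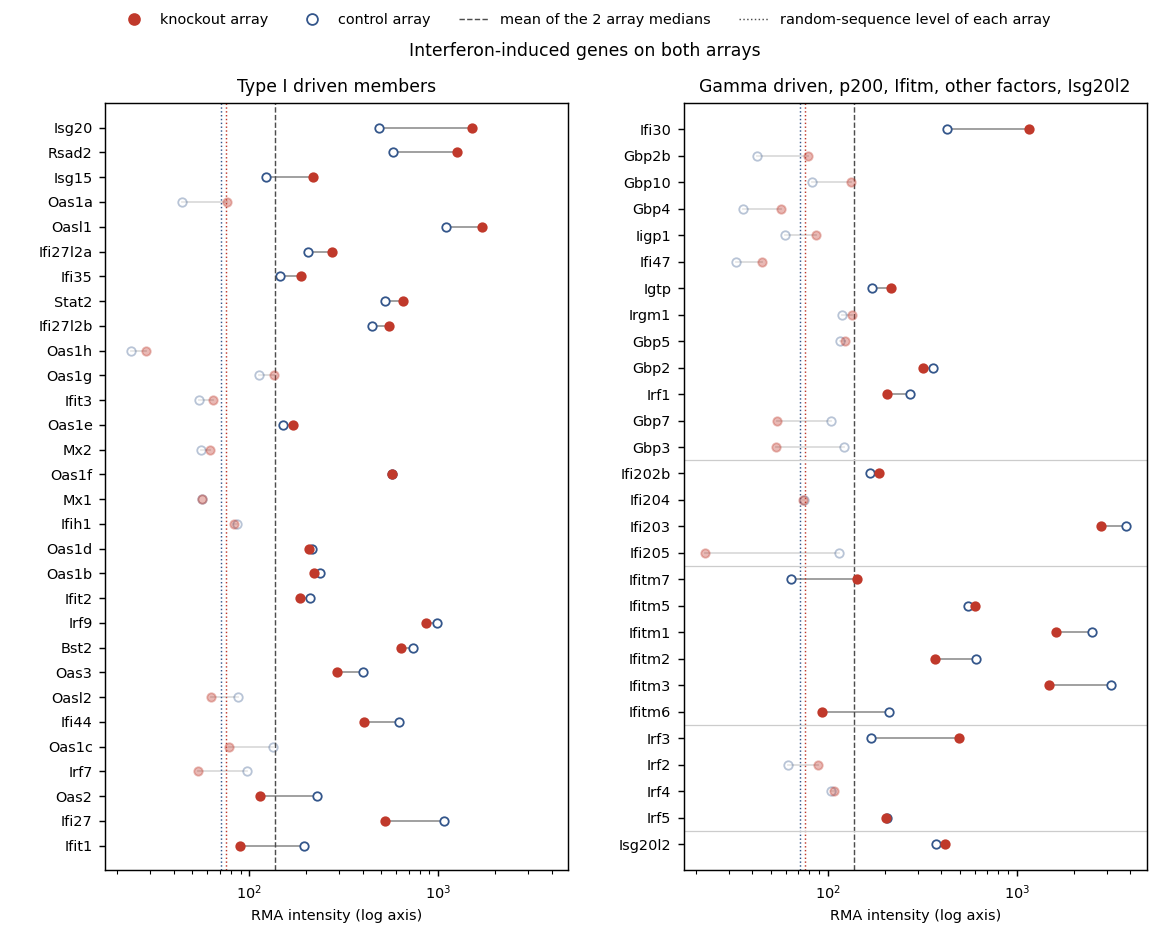
RMA intensity (log axis) of the brightest sequence of 58 of the 60 members, with filled points for the knockout array and open points for the control array, sorted by difference within each group. Pale points are the 23 drawn members outside the detected range, the dashed line is the mean of the array medians and the dotted lines are the probe background of each array (75.7 knockout, 71.3 control). Isg20, Rsad2, Ifi30 and Irf3 stand out to the right on the knockout array, and Ifitm3, Ifi27 and Ifit1 on the control array.

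Among the effectors of the type I response, Isg20, an exonuclease that degrades RNA, had the largest difference (chr7:86059120-86065224, MM9). It was at 1519 on the knockout array and 489 on the control array, a log2 difference of 1.64, and 1.30% of genes in the detected range differed as far upward. Its second sequence was at 402 in the knockout and 228 in the control, a difference of 0.82. Its last was at 130.01 in the knockout and 58.6 in the control, where it was not above the probe background, the intensity of probes with random sequence. All 3 sequences of Isg20 were thus higher in the knockout.

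Rsad2, which encodes viperin, an enzyme that makes a chain-terminating nucleotide against viral RNA synthesis, was at 1265 in the knockout and 580.3 in the control (1.12; chr12:27129348-27141289, MM9). Its other sequence was at 796 in the knockout and 395 in the control (1.01), so both lay above 2-fold. Isg15, a ubiquitin-like protein joined to other proteins during the response, was at 218 in the knockout and 122 in the control (0.84), and its other sequence differed by 0.54. Oasl1, a member of the oligoadenylate synthetase family that in mouse restrains Irf7 translation, was at 1709 in the knockout and 1105 in the control (0.63), with 0.31 in its other sequence. For these 3 genes every sequence was higher, although Isg15 and Oasl1 did not reach 2-fold.

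Other type I effectors were lower on the knockout array. Ifit1, which binds the caps of foreign RNA, was at 88.99 in the knockout and 196 in the control (-1.14; chr19:34715406-34724060, MM9). Its single sequence was only 1.18 times the probe background in the knockout, so the size of this difference rests on a value near background. Ifi27, a small membrane protein, was at 522 in the knockout and 1073 in the control (-1.04), and its other sequences differed by -1.09 and -0.05. Oas2, one of the synthetases whose product activates RNase L, was at 114 in the knockout and 227 in the control (-1.001). The other sequences of Oas2 were below the probe background on both arrays and give no difference. Ifi44 was at 407 in the knockout and 620.4 in the control (-0.61), and Oas3, another synthetase, was at 293 in the knockout and 399.5 in the control (-0.45).

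The remaining type I members in the detected range differed by less than 0.5 on the log2 scale. Ifit2, a neighbour of Ifit1 in the same RNA-binding family, was at 186 in the knockout and 209.6 in the control (-0.17). Bst2, or tetherin, which holds budding virus at the cell surface, was at 633 in the knockout and 733 in the control (-0.21). Its other sequences went opposite ways, with -1.25 and 0.63, so no direction can be given for Bst2. The Oas1 genes in this range were close to even, with Oas1f at 0.01, Oas1d at -0.05, Oas1b at -0.11 and Oas1e at 0.18, and the 4 sequences of Oas1b ran from -0.99 to 0.89. The small membrane protein gene Ifi27l2b (0.30) was slightly higher, as was Ifi35 (0.37). For the related Ifi27l2a the difference was 0.42, but its other sequence differed by -0.53, so no direction can be given for Ifi27l2a.

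Of the 24 members outside the detected range, 8 were above the probe background on both arrays, 10 on 1 array and 6 on neither. The classical antiviral GTPase genes Mx1 and Mx2 were below the probe background on both arrays, as were Ifit3 and Oas1h. Ifih1, the RNA sensor MDA5, was at 83.0 in the knockout and 85.8 in the control, just above that level on both arrays. Irf7, the factor that amplifies type I interferon production, was above the level on the control array only and was at least 1.29-fold lower in the knockout, and Oasl2, of the synthetase family, was at least 1.16-fold lower in the same way. Oas1c was dim on both arrays. These low intensities limit what can be said of the strongest type I markers.

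Genes driven mainly by interferon gamma were dim as a group, and only 4 of 13 were in the detected range. Ifi30, the lysosomal thiol reductase GILT that unfolds antigens, was at 1159 in the knockout and 428 in the control (1.44; chr8:73286671-73290548, MM9), and it had 1 sequence. Of 7 macrophage markers 5 were higher too, 3 of them at least 2-fold, while C1qb (-0.58) and Vcam1 (-0.34) were lower. Of these 3, Mertk was not above the probe background in the control. The summed intensities were 8382 in the knockout and 7358.5 in the control. Most of each sum was Adgre1, at 7056 in the knockout and 6543 in the control (0.11). The part of such cells in the Ifi30 difference was not tested. Igtp, an immunity-related GTPase, was at 215 in the knockout and 171 in the control (0.33), with -0.24 in the other sequence that was above the probe background on both arrays. Gbp2, a guanylate-binding protein, was at 318 in the knockout and 361 in the control (-0.18), with 0.14 in its other sequence. Irf1, the first factor in the gamma response, was at 206 in the knockout and 273 in the control (-0.41), but its other sequences both differed by 0.50 in the opposite direction.

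The other gamma members had no firm level. Iigp1 and Gbp2b were above the probe background on the knockout array only and were higher by at least 1.22-fold (Iigp1) and 1.11-fold (Gbp2b). Gbp3 and Gbp7 were above it on the control array only and were lower in the knockout by at least 1.603-fold (Gbp3) and 1.38-fold (Gbp7). Gbp10, Gbp5 and Irgm1 were above it on both arrays and differed by 0.69, 0.07 and 0.18. Gbp4 and Ifi47 were not above it on either array.

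Set side by side, neither driver gave a direction. The median of the 20 detected type I members was -0.02, with 10 higher and 10 lower, and the 4 gamma members had 0.07, with 2 higher and 2 lower. With every measured member kept, the 30 type I members had a median of 0.00 and the 13 gamma members 0.33, where 9 were higher and 4 lower, and 9 of these 13 lay outside the detected range. Ifi30 was the only gamma member at 2-fold in the detected range, 1 of 4 upward. Of the 20 type I members, 2 passed 2-fold upward and 3 downward. Over all genes in that range the shares were 6.41% upward and 7.29% downward, and groups this small give no contrast between the drivers.

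The Ifitm genes code for small membrane proteins that hinder fusion of virus with endosomes, and most of them lie in a cluster on chromosome 7. Ifitm3, the most studied of them, was at 1482 in the knockout and 3144 in the control (-1.08; chr7:148195487-148196595, MM9). Ifitm1 was at 1612 in the knockout and 2505 in the control (-0.64), and its other sequences differed by -0.90, -0.25 and -0.16. Ifitm2 was at 369 in the knockout and 612 in the control (-0.73). Ifitm6 was at 93.0 in the knockout, where it was 1.23 times the probe background, and 212 in the control (-1.19). All 7 sequences of these 4 genes were lower on the knockout array. Of 11 granulocyte and monocyte markers, 8 were also lower, with summed intensities of 53877 in the knockout and 138951 in the control. The other 3, Csf1r (1.19), Itgam (0.77) and Ly6c2 (0.62), were higher, although 2 of the 3 sequences of Csf1r and of Itgam were lower. The sums thus do not stand for every marker of the list. The part of such cells in the Ifitm and Ifit1 differences was not tested.

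Ifitm5, a bone gene of the same cluster, was at 599 in the knockout and 549.6 in the control (0.12). Ifitm7, on chromosome 16, was not above the probe background in the control and was at least 2.001-fold higher in the knockout. The family median was -0.68 over 6 members, the lowest of the groups, beside 0.03 for all genes. Near-identical family members may share probe signal, and the sources used here do not say how the probes were placed.

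The p200 proteins bind nucleic acids and regulate growth and sensing, and their genes form a cluster on chromosome 1. Ifi203 was at 2779 in the knockout and 3771 in the control (-0.44), but the 4 of its 8 sequences above the probe background on both arrays ran from -0.44 to 0.14. Ifi202b was at 187 in the knockout and 167 in the control (0.16). Ifi205 was below the array median on both arrays and was at least 1.52-fold lower in the knockout, where it was not above the probe background. Ifi204 was above that level on the control array only.

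The factors that carry the signal were mostly even, with Irf3 as the exception. Irf3, which is activated by phosphorylation after RNA or DNA sensing and starts interferon beta transcription, was at 494 in the knockout and 170.2 in the control (1.54; chr7:52253155-52258218, MM9), and 1.63% of genes differed as far upward. Its other sequence was at 128 in the knockout and 51.6 in the control, where it was not above the probe background. Stat2 was at 654 in the knockout and 522 in the control (0.32), and Irf9, the DNA-binding part of the same complex, was at 864 in the knockout and 991 in the control (-0.20), with other sequences at 0.68 and 0.04. Irf5 was at 204 in the knockout and 206 in the control (-0.01). Irf4, a factor of lymphoid cells, and Irf2, a repressor of Irf1 targets and at least 1.24-fold higher in the knockout, were outside the detected range. The 6 factors in that range had a median of 0.16.

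Isg20l2, a nucleolar exonuclease of ribosome synthesis that the name pattern takes in, was at 416 in the knockout and 374 in the control (0.15).

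Sequences of the same gene could be compared with each other, which shows probe noise and transcript variants together and says nothing of animals. Of 12 members with several sequences in the detected range, 5 had all of them in 1 direction (41.7%), beside 45.9% of 4969 genes. These were Isg20, Rsad2 and Oasl1, all higher, and Ifitm1 and Ifi27, all lower. The standard deviation between sequences of 1 gene was 0.53 for the members and 0.66 for all genes on the log2 scale.

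**Figure D2:**
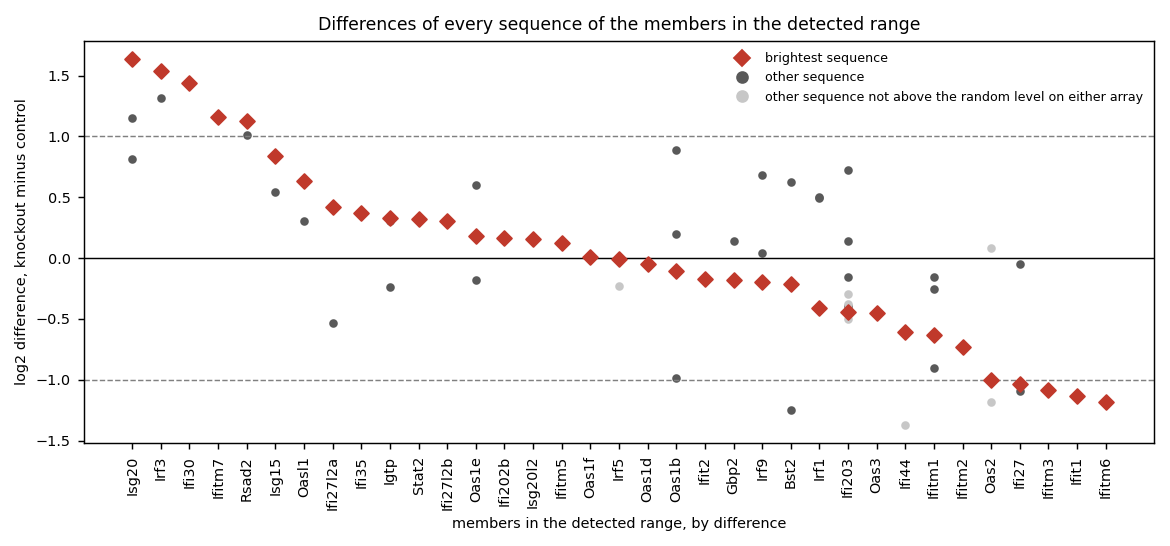
Log2 difference (knockout minus control) of every sequence of 35 of the 36 members in the detected range, sorted by the brightest sequence (diamonds), with other sequences as dots (pale where below the probe background on both arrays) and dashed lines at 2-fold. The sequences of Isg20, Irf3 and Rsad2 lie together on the high side and those of Ifitm1 on the low side, while those of Oas1b and Bst2 lie on both sides of 0.

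Genes upstream of the response went both ways. Of 18 detected pathway genes (ligands, receptors, kinases, inhibitors and sensors), 8 were higher and 10 lower. None reached 2-fold upward, beside 6.41% of all genes, and 1 did downward, beside 7.29%. With 18 genes such counts cannot be told apart from those shares. The gene at 2-fold was Ptpn6, the phosphatase SHP-1 that turns off Jak kinases. It was at 491 in the knockout and 1092 in the control (-1.15), and its other sequence was below the probe background on both arrays. Ifnar2, a chain of the type I receptor, was at 4747 in the knockout and 7487 in the control (-0.66), and all 4 of its sequences were lower, by -1.02 to -0.17. Ifngr2, a chain of the gamma receptor, was at 141 in the knockout and 138 in the control (0.02). Of 7 ligand genes, 3 were in the detected range, and none of these reached 2-fold. Ifna1 was at 1013 in the knockout and 753 in the control (0.43). Ifna2 differed by 0.18 and Ifnk by -0.07, and each of these genes had 1 sequence. Ifnb1 and Ifng were not in the detected range.

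Other interferon-induced genes, outside the name rule, numbered 32 in the detected range. Among them 23 were lower and 9 higher, their median was -0.22, and 5 passed 2-fold downward, beside 7.29% of all genes, and 1 upward, beside 6.41%. For all genes the counts were 7839 lower and 8402 higher, and the median 0.03. Samd9l, an antiviral factor and growth restraint of blood cells, was at 753 in the knockout and 2769 in the control (-1.88), although its other sequence differed by 0.13. Tor3a was at 302 in the knockout and 730.1 in the control (-1.27), and its other sequence was below the probe background on both arrays. Tap2, a peptide transporter chain for antigen presentation, was at 273 in the knockout and 598 in the control (-1.13), and the RNA-dependent kinase gene Eif2ak2 was at 179 in the knockout and 391 in the control (-1.13), each with 1 sequence. Sp100, of nuclear bodies, differed by -1.08 with its 5 sequences between -2.05 and 1.11. Parp12 was at 278 in the knockout and 127 in the control (1.13). A further 10 genes in the detected range carry Ifi, Gbp or Ifitm names only in the current nomenclature, and 5 of them were higher and 5 lower. By the values kept in the counts, 1 (Ifi209) passed 2-fold downward, beside 7.29% of all genes, and none upward, beside 6.41%. Ifi209 was not above the probe background in the knockout, where it was at least 1.94-fold lower. Its other sequence went the opposite way (0.50).

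Some markers of other blood cells differed between the arrays beside these genes. In bulk RNA, fewer cells of a type and less RNA per cell cannot be told apart. All 10 erythroid markers were higher in the knockout, with summed intensities of 83174 in the knockout and 15754 in the control. Of 10 LT-HSC markers 3 (Fgd5, Procr and Tek) were below the probe background on both arrays, and 4 of the 10 were higher and 6 lower, with Mecom more than 2-fold lower (-1.10). The sums of the list were 3088 in the knockout and 3087 in the control, but they joined bright genes that went opposite ways. Cd34 was at 1105 in the knockout and 746 in the control, and Ly6a was at 596 in the knockout and 835 in the control. Even sums thus do not show an even content of stem cells. The plasmacytoid dendritic cell list, cells that make much type I interferon, also holds Bst2, a member. Without it the sums were 3451 in the knockout and 2689 in the control, with 3 of 6 markers higher. Siglech of this list was at 1518 in the knockout and 825 in the control, but its 4 sequences ran from -0.54 to 0.88. Of 7 T and NK markers 3 were higher and 4 lower, with Gzmb more than 2-fold lower (-2.64). Of 6 B markers 4 were higher and 2 lower, none of them at 2-fold. The part of these cell types in the differences of the other members was not tested. The targeted gene Washc1 was at 107 in the knockout and 119 in the control (-0.15), both below the array median. Where its probes lie relative to the deletion is unknown here, so the value says nothing about the labels.

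**Figure D3:**
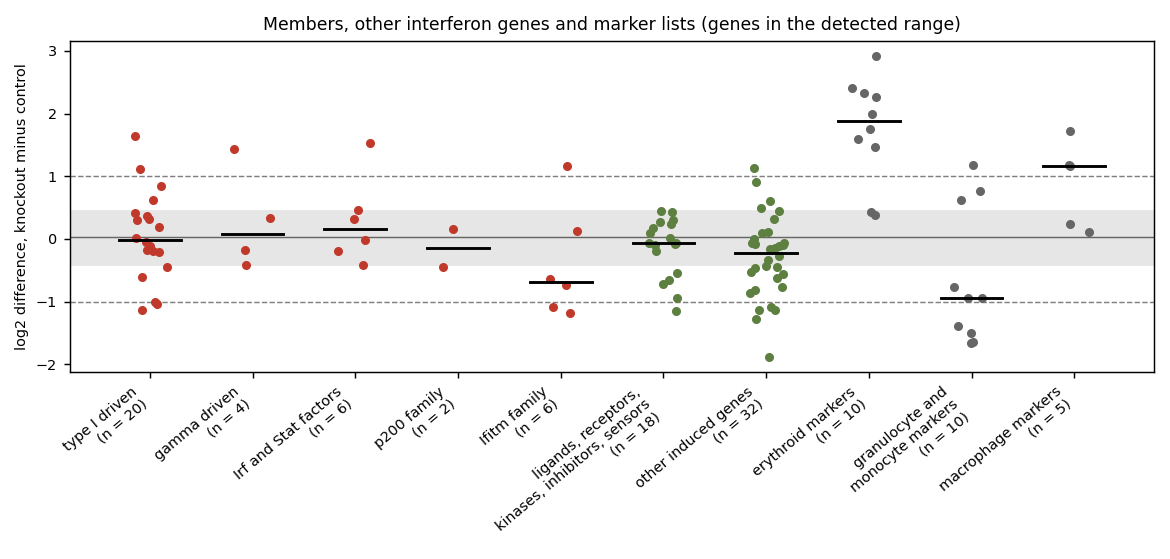
Log2 difference (knockout minus control) of genes in the detected range, 1 point per gene and a bar at the list median, for member groups (red), other interferon genes (green) and markers of other cells (grey); the band runs between the quartiles of all genes and dashed lines mark 2-fold. Factors shared with the type I or gamma groups are drawn under both. The Ifitm family has the lowest median among the member groups (-0.68), while erythroid markers are centred at 1.88 and granulocyte and monocyte markers at -0.94.

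Response element letters were common in the promoters of the members. Of the 60 members, 45 had a RefSeq promoter window, and 23 of these (51.1%) held ISRE letters, beside 3.99% of all 27025 genes in the table. GAS letters, searched on both strands as TTC, any 3 bases and GAA, were found in 13 of 45 (28.9%), beside 9.55% of all genes. A GAS match overlapped an ISRE match in Ifitm3 and in Bst2. ISRE letters were found in 11 of 21 type I members with a window and in 7 of 10 gamma members. For GAS letters these counts were 5 of 21 and 4 of 10.

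ISRE letters occurred on both sides of the comparison, in small numbers that were not tested. Of members at least 2-fold higher, 1 of 5 with a window held ISRE letters and 1 held GAS letters, and of members at least 2-fold lower, 2 of 3 held ISRE letters and 2 held GAS letters. Among detected members with a window, the 11 with ISRE letters had a median difference of -0.21, with 4 higher and 7 lower, and the 17 without had 0.12, with 10 higher and 7 lower. Rsad2 and Isg15, both higher in the knockout, and Ifit1 and Ifitm3, both lower, hold the letters shown above. Irf3 and Ifi30 held neither motif in their windows, and Isg20, with 3 windows in the table, held only a GAS match, shown with its letters in capitals.
Isg20: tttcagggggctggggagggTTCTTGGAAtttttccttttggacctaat
This stretch lies at chr7:78913331-78913379 on the plus strand (GRCm38.p6).

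Some family members also share promoter letters. The stretches around the ISRE matches of Oas1a and Oas1g, shown here as an example of neighbouring genes with the same letters, were identical at 55 of 56 bases.
Oas1a: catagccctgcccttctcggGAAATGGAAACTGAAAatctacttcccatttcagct
Oas1g: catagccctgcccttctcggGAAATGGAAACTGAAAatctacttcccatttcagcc
They lie at chr5:120907510-120907565 and chr5:120887596-120887651, both on the minus strand (GRCm38.p6). Neither gene was in the detected range. Oas1a was at 76.6 in the knockout and 43.9 in the control, where it was not above the probe background, so it was at least 1.07-fold higher. The other gene, Oas1g, was at 135 in the knockout and 113 in the control (0.25). Its other sequence went the opposite way, at 38.8 in the knockout and 174.9 in the control, and was above the probe background on the control array only. No direction can therefore be given for Oas1g.

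**Figure D4:**
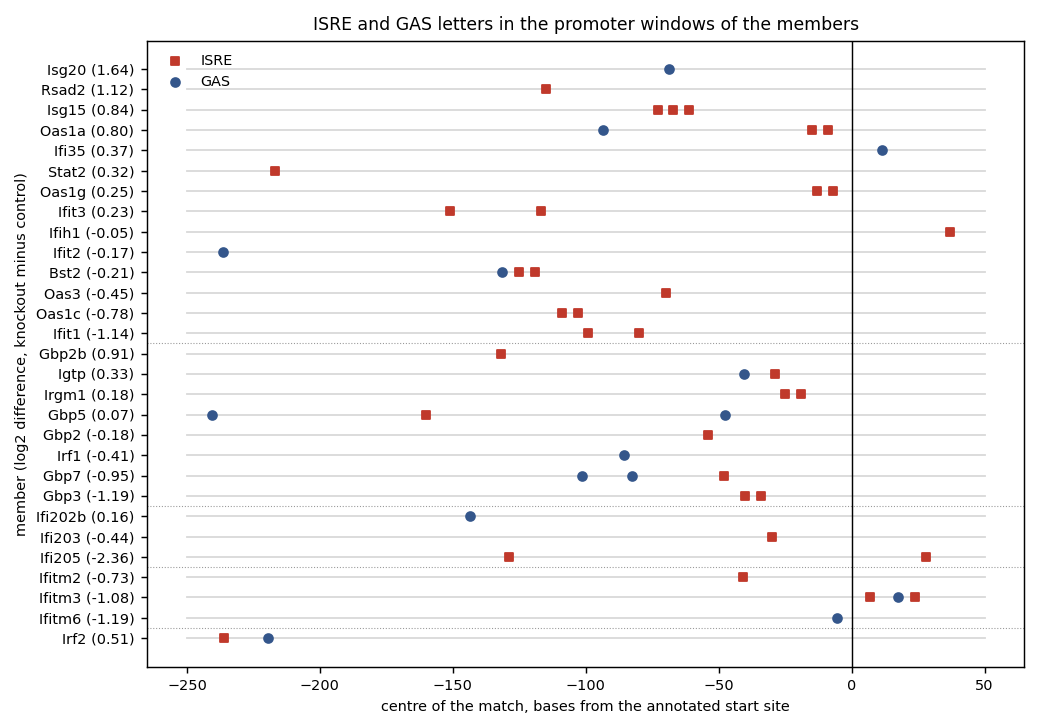
Positions of ISRE (squares) and GAS (circles) letters relative to the annotated start site (bases) in the windows of members that hold either, with each gene's log2 difference (knockout minus control) beside its name and dotted lines between the type I, gamma, p200, Ifitm and factor groups. ISRE squares occur in genes from 1.12 (Rsad2) to -1.14 (Ifit1) within the type I group.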

How the data were processed

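Per the submitters' processing notes, the deposited intensities came from RMA, a method that removes background, brings the arrays to a common distribution and combines probes, so a change common to most genes is hidden. Its version: not given in the sources used here. The authors gave, per the file headers, 1 linear intensity per sequence with MM9 coordinates, and 44155 of 44170 sequences had 3 probes.

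The deposited intensities were put on a log2 scale with no added normalization (Python 3.11.15, numpy 2.4.6, pandas 2.3.3). Gene symbols were updated through RefSeq identifiers, and the sequence with the highest mean log2 value stood for a gene. The detected range held genes whose higher value passed percentile 50 of that array. The 5000 random-sequence probes gave the probe background of 75.7 on the knockout and 71.3 on the control array; a gene at or below it on 1 array is given as a bound against that level, while counts and medians kept the values. The number of arrays, 1 per genotype, limits the precision. The steps were tested on simulated data.

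Members named are those at 2-fold in the detected range, the factors, the brightest of each group and others by group; genes outside the rule were named at 2-fold, up to 3 per list, and the others after their values were seen. Some members are not reported by name here, although the counts and medians include them. Members and lists were chosen with earlier results of these data known. Alternatives were the series table, centring, quantile and loess scaling (span 0.3), an offset of 50, the mean or dimmest sequence, other filters and sizes of 1.5-fold and 3-fold.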

Additional observations from a re-analysis of the deposited data

How the results depend on the processing

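No paired analysis was possible because knockout and control had a single array each. Over the alternatives run, the median of all members lay between -0.05 and 0.06, and the type I median between -0.05 and 0.01. Centring, quantile scaling and loess left both counts at 5. The array medians were already close (137.5 knockout, 136.9 control), as were the upper quartiles (329.9 and 327.6). Centring and quantile scaling could therefore hardly change these counts. The 5 members at least 2-fold lower became 1 of 36 with an offset before the log (4.52% of all genes), 3 of 33 with the mean of sequences (5.77%), 2 of 21 with the percentile 75 filter (7.13%), 8 at 1.5-fold (18.3%) and 0 at 3-fold (1.72%). The 5 at least 2-fold higher became 3 of 25 with the dimmest sequence (7.44% of all genes) and 1 at 3-fold (1.49%). Chosen after seeing the data, a filter on both arrays left 2 of 31 lower (4.75%); a larger size or a stricter filter can only lower such counts. The gamma median of 0.07 became 0.97 with the dimmest sequence and 0.63 with the percentile 75 filter, over 2 genes each. Irf3, Ifi30, Isg20, Rsad2 and Ifitm3 stayed at 2-fold in all 8 settings run for them, but some of these could not change the result. The series table held the same intensities (largest difference 0.0412). Ifi30 and Ifitm3 have 1 sequence, so the mean and the dimmest sequence returned their main values. Irf1 turned to 0.50 with the dimmest sequence. Oas2 stayed at 2-fold in 6 of 8 settings. Closeness to the probe background limits Ifit1, Ifitm6, Ifitm7, Oas2 and most gamma genes.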
